A study of Equus caballus with 34 samples.

Results

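Histones are the proteins that package DNA, and the equine array carried 56 probes for them that could be read in ovarian follicles. The probes were chosen from the array's own annotation: a description naming histone H1, H2A, H2B, H3 or H4 in any case, without the words methyltransferase, acetyltransferase, deacetylase, demethylase, kinase or binding, and a signal that the scanner software marked as well above background on 5 or more arrays out of 34. Of 43603 non-control probes, 67 had such a description and 56 of these passed the signal filter. The 11 left out were well above background on 0 to 3 arrays, and were 5 probes for H2A type 2-B, 1 for H2B testis type 1-A and 5 for an H2B variant PT15-like. The members with the fewest readings were the probes for H1-1 (11 and 13 arrays) and H1-6 (13 arrays), and 47 of the 56 were well above background on every array. By family there were 5 probes for H1, 17 for H2A, 10 for H2B, 14 for H3 and 10 for H4. By class, 43 probed replication-coupled histones, 12 replacement variants (5 for H2A.Z, 5 for H3.3B and 2 for CENPA) and 1 the germline linker histone H1-6. Every member not named as such a variant or germline histone was classed as replication-coupled, also where it had no gene symbol. A current gene symbol could be given to 25 probes, and the others are called by the array's description of their protein.

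The study followed the dominant follicle of the mare's ovary through 3 stages in its 2 layers. Granulosa cells (GC), which line the follicle, and the theca wall (TW) around them were each sampled at a stage called early dominant (ED), at a later dominant stage (LD) and in preovulatory follicles (PO), and the design text compares the stages within each layer. There were 5 GC ED, 5 GC LD, 5 GC PO, 5 TW ED, 9 TW LD and 5 TW PO samples. They are described as biological replicates, each on 1 single-colour Agilent array. The design text, however, counts 5 per group, so the number of independent TW LD samples is in doubt. Which 5 it had in mind is unknown, and all 9 were used in the fits. Whether any TW LD array repeats another's sample was not tested. No treatment, genotype or age is given for any group in the sources used here, nor whether GC and TW samples shared a follicle. The main fits took all arrays as independent samples, so their p-values make no allowance for a shared follicle or a repeated sample. The theca wall is a mixed tissue, and in bulk RNA fewer cells of a type and less RNA per cell cannot be told apart. Total RNA was primed with oligo(dT), which needs a run of A, before it was copied and labelled.

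A nucleosome holds DNA around a core of H2A, H2B, H3 and H4, and linker histone H1 binds where the DNA enters and leaves. Replication-coupled histone genes are read mainly while DNA is copied, and their messenger RNAs end in a conserved stem-loop, bound by the protein SLBP, in place of a poly(A) tail. Replacement variants such as H2A.Z, H3.3 and the centromeric CENPA are made from polyadenylated messages and are placed outside bulk replication. In growing follicles granulosa cells divide, and they leave the cell cycle as the follicle nears ovulation.

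Some of the probes can be read directly against this textbook layout. The windows of 30 bases given first hold the stem-loop letters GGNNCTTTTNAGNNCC, in capitals, as spotted on the array. These 16 letters were searched on both strands of every probe and found in 13 of 43603 (0.0298%), of which 4 were members. They are shown because these letters are a hallmark of replication-coupled messages. The probes run on beyond the windows, past the stem-loop, where a processed message ends.
H2BC21: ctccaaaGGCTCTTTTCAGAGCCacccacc
H3.2 probe A_69_P076071: atccaaaGGCTCTTTTCAGAGCCacccaca
H2A type 1-J: aaccaaaGGCTCTTTTCAGAGCCacctact
H4 probe A_69_P036991: caacaaaGGCCCTTTTCAGGGCCacccacc
The probes for H2A type 1-J, H2BC21 and H3.2 shared runs of 24 to 28 bases, although they belong to 3 families, so their readings are not independent.

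Another 15 members ended on the letters of a stop codon, as did 9.13% of all probes. The capitals mark those letters in the H2A and H2B probes below, shown because results turn on them and because closely related probes gave different readings.
H2A type 1-D: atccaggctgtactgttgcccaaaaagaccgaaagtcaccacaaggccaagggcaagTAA
H2AC19: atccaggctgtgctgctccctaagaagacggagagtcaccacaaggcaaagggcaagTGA
H2AC5: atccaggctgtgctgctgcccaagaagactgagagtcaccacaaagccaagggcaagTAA
H2AC9: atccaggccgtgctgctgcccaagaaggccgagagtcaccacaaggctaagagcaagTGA
H2AC4: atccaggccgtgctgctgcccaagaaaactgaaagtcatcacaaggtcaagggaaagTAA
H2BC4: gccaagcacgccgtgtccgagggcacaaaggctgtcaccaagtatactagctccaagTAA
H2BC18: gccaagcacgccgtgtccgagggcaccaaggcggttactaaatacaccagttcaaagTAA
Probes for the linker histone H1-1 and for CENPA, which carried the largest falls, are given whole.
H1-1 probe A_69_P036982: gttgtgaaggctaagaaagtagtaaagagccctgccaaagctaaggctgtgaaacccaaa
CENPA probe A_69_P060296: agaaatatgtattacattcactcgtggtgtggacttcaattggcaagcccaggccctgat
Among the 1540 pairs of members, 49 shared at least 20 bases in a row, which tied the 56 probes into 31 groups, 20 of them single probes. The 2 H1-1 probes shared 59 of their 60 bases, the H2A.Z probes 44 to 59 and the H3.3B probes 56 to 59, so counts of probes are larger than counts of independent readings, and signals of near-identical histone genes cannot be told apart.

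All levels below are log2 signals relative to the 75th percentile of the same array, and differences are log2 differences from limma with Benjamini-Hochberg adjustment over all 36629 probes tested, called at an adjusted p under 0.05. Between 64.3% and 82.5% of probes were well above background on an array, and the number of arrays limits the precision. Repeated spots of a probe varied by 5.68% to 9.99% on 30 arrays and by 20.19% to 30.12% on the 4 arrays of slide 7 (TW ED 4, TW LD 6, TW LD 7 and TW PO 4). The layer labels were checked on marker lists: the mean of 8 theca and stroma markers lay between -3.11 and -0.63 on GC arrays and between 1.23 and 3.03 on TW arrays. The mean of 8 granulosa markers lay between 2.81 and 3.77 on GC ED arrays, between -0.20 and 0.61 on GC PO arrays and between -2.97 and 0.60 on TW arrays, where TW ED 3 (-0.23) and TW ED 5 (0.60) stood above the other TW ED arrays. The GC LD arrays were spread out: their mean over 14 mitosis genes was -0.85, -2.78, -4.85, 0.53 and 1.10.

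From the early dominant to the preovulatory stage, most H2B probes rose in granulosa cells, and 3 of 5 probes for linker histone H1 and both probes for CENPA fell, while H4 probes were called in both directions and 1 dim H2A probe fell. Of the 56 histone probes 10 rose and 9 fell, against 21% of all tested probes that rose and 19.2% that fell, so the shares of the family as a whole (median change -0.02, all probes 0.10) were near the background. Counts by family follow, with no test between families. Of 10 H2B probes 8 rose and 1 fell (median 1.48), of 5 H1 probes 3 fell and none rose (median -2.99), of 12 H2A probes without H2A.Z 1 fell (median -0.22), of 14 H3 probes 2 fell, both for CENPA, and of 10 H4 probes 2 rose and 2 fell (median 0.51). The 10 rising probes fell into 7 groups of shared sequence and the 9 falling ones into 8. Other scalings moved the split: 9 rose and 12 fell on quantile-normalized arrays, 10 and 16 after normexp background correction, and 10 and 14 in the authors' deposited values.

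H2BC21, a core H2B gene whose probe holds the stem-loop letters, rose most. Its levels were -1.71, -1.82, -2.31, -2.45 and -2.48 in GC ED, -0.28, -0.78, 0.66, -1.11 and -2.28 in GC LD, and 0.88, 0.58, 0.10, 1.02 and 0.28 in GC PO. The ED and PO groups were fully separate and the LD arrays bridged them. The rise was 2.73 (SE 0.42, 6.62-fold, adjusted p = 0.000366), and within the 5 slides, each with 1 array of every GC stage, it ran from 2.39 to 3.47. The stem-loop letters are bases 12 to 27 of the 60-base H2BC21 probe, so much of it lies past where a processed message ends. Which form of the message it read was not tested.

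H2BC5, another core H2B gene, had 2 probes sharing 40 bases. Probe A_69_P037046 read 2.48, 2.09, 1.59, 1.72 and 1.73 in GC ED, 2.19 as the median and 2.88 as the highest in GC LD, and 3.43, 3.04, 3.78, 3.80 and 3.74 in GC PO. Every PO array was above every earlier GC array, and LD overlapped ED. The rises were 1.64 (SE 0.30, 3.11-fold, adjusted p = 0.000826) and, for the other probe, 1.56 (adjusted p = 0.00088).

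Most of the other H2B probes also rose, with 2 exceptions. H2BC4 read -0.10, -0.35, -0.41, -0.88 and -0.60 in GC ED and between 0.25 and 1.60 in GC PO, without overlap, a rise of 1.52 (SE 0.30, adjusted p = 0.00146). H2BC9 (1.49, adjusted p = 0.00102), H2B type 1-L (1.48, adjusted p = 0.000915), H2BC18 (1.29, adjusted p = 0.00329) and H2BC25 (1.02, adjusted p = 0.00813) also rose, and of these only H2BC25 had overlapping groups. Of the other H2B probes, H2BC15 differed by 0.59 (adjusted p = 0.0998) and H2BC3 fell by 1.68 (SE 0.58, adjusted p = 0.0304). H2BC3, a dim probe, read -5.37, -3.73, -4.18, -4.42 and -5.32 in GC ED and -7.59, -5.61, -5.72, -6.26 and -6.24 in GC PO, and it stayed called without each of 10 of the 15 GC arrays only, so this fall is less firm than the rises.

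The linker histone H1-1 gave the largest falls. Its probe A_69_P036982 read -2.10, -4.31, -3.31, -3.03 and -3.56 in GC ED, -8.27, -8.24, -9.22, -5.77 and -2.31 in GC LD, and -8.60, -8.44, -8.68, -8.93 and -8.37 in GC PO. It was well above background on 5 ED, 2 LD and 0 PO arrays, so PO has only a bound: H1-1 was at least 12.1-fold higher in GC ED than in GC PO, and at least 11.4-fold by its near-identical probe (fitted changes -5.34 and -5.11, adjusted p = 0.000801 and 0.000649). A bound here sets the bright group's mean against, on each dim array, the higher of the probe's own signal and the lowest signal well above background. The bright mean takes in every array of its group, so a bound is only approximate where some of these were not well above background.

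H1-5, also a linker histone, read -5.09, -4.19, -4.24, -4.72 and -5.20 in GC ED and -8.50, -6.85, -6.80, -8.48 and -7.77 in GC PO, where no array was well above background. It was at least 4.43-fold higher in GC ED (fitted change -2.99, SE 0.45, adjusted p = 0.000318). H1-2, the remaining replication-coupled linker histone, differed by 1.32 (SE 0.59) and was not called (adjusted p = 0.0895).

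CENPA, the H3 variant that marks centromeres, read 0.16, 0.24, 0.49, -0.25 and -0.96 in GC ED, -0.54, -1.98, -4.42, -0.76 and -0.04 in GC LD, and -2.71, -4.63, -3.47, -2.21 and -3.29 in GC PO by probe A_69_P060296. All PO arrays lay under all ED arrays, and the LD arrays ranged from the ED level to the PO level. The fall was -3.20 (SE 0.69, 9.18-fold, adjusted p = 0.00239), and -2.95 (7.73-fold, adjusted p = 0.00168) by the other CENPA probe.

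Among core H4 genes, H4C14 fell. It read -1.57, -1.08, -0.61, -0.66 and -1.89 in GC ED and -3.27, -4.27, -3.18, -3.96 and -3.69 in GC PO, a change of -2.51 (SE 0.51, 5.71-fold, adjusted p = 0.00153) between groups that did not overlap. The other called H4 probes changed less: A_69_P052136 by 0.95 (adjusted p = 0.0496), A_69_P036991 by 0.86 (adjusted p = 0.0201) and A_69_P128251 by -0.77 (adjusted p = 0.0372). A_69_P036991 and A_69_P128251 carry the same transcript identifier in the annotation and were called in opposite directions. A_69_P052136 was called without each of only 4 of the 15 GC arrays, A_69_P128251 without each of 7 and A_69_P036991 without each of 14. H2A type 1-H was the 1 H2A probe called, with readings of -6.13, -5.97, -5.87, -6.26 and -6.64 in GC ED, 4 of them well above background. No GC PO reading was well above background, and there it was at least 1.61-fold lower (fitted change -1.94, adjusted p = 0.00213).

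The replacement variants other than CENPA were bright and not called. H2A.Z, a variant found at regulatory regions, read 4.77, 4.45, 4.67, 4.13 and 4.15 in GC ED, 3.90 as the median and 4.19 as the highest in GC LD, and 5.81, 2.92, 5.46, 5.59 and 5.63 in GC PO by probe A_69_P082771. In GC PO 4 arrays were above all earlier GC arrays and GC PO 2 was below all of them. Its 5 probes differed by 0.65 to 0.74 (adjusted p = 0.234 to 0.278). Without GC PO 2, all 5 H2A.Z probes were called, with rises of 1.19 to 1.31 (adjusted p = 0.00153 to 0.0022). H3.3B, a variant placed independently of replication, differed by -0.27 to -0.12 in its 5 probes (adjusted p = 0.448 to 0.745). Its probe A_69_P004045 read 5.03, 5.24, 5.24, 4.91 and 5.15 in GC ED and 4.83, 4.67, 4.96, 4.75 and 5.23 in GC PO, with overlapping groups. On quantile-normalized arrays, after normexp and in the authors' deposited values, 3 of the 5 H3.3B probes were called lower (-0.68 to -0.51).

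In the step from early to late dominant, no histone probe was called in granulosa cells, against 0.00273% of all tested probes higher and 0% lower. At an unadjusted p under 0.05, 2 histone probes were higher and 7 lower by limma. The largest differences that did not pass were those of H1-1 (-3.50 and -3.01), H2BC3 (-1.66), CENPA probe A_69_P060296 (-1.48) and H4C14 (-1.47), and the largest upward one was that of H2BC21 (1.40, adjusted p = 0.208). Without GC LD 5, which lay near the ED arrays for H1-1, CENPA and H4C14, 6 probes were called: H2BC21 1.78 higher and both H1-1 probes, H2A type 1-H, H2BC3 and H4C14 lower (-4.61, -4.02, -1.45, -2.06 and -1.83).

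From late dominant to preovulatory, 7 histone probes rose and 1 fell in granulosa cells, against 5.87% and 8.09% of all probes (member median 0.00, all probes 0.02). The 7 rising probes came from 5 groups of shared sequence. All 7 were H2B probes, of 10 (H2B median 1.11), and all 7 had also risen over the whole interval. H2BC5 rose by 1.36 (SE 0.30, adjusted p = 0.0125) and 1.32 (adjusted p = 0.0120), H2B type 1-L by 1.21 (adjusted p = 0.0143), H2BC4 by 1.13 (adjusted p = 0.0265), H2BC9 by 1.10 (adjusted p = 0.0221), H2BC25 by 0.93 (adjusted p = 0.0355) and H2BC21 by 1.33 (SE 0.42, adjusted p = 0.0498). H2BC21 was called in 8 of 12 alternatives and without each of only 1 of the 15 GC arrays, H2BC25 without each of 8, and H2BC4 and H1-5 without each of 10. H1-5 was called lower in GC PO (fitted change -1.62, SE 0.45, adjusted p = 0.0303). It was well above background on 2 of 5 GC LD and 0 of 5 GC PO arrays, so no firm bound can be given. Its change ranged from -1.87 to -0.25 over the alternatives and left-out arrays, with a call in 9 of 12 alternatives. The 5 H2A.Z probes differed by 1.32 to 1.42 without being called, and by 1.86 to 1.98 with calls when GC PO 2 was left out. The count of 8 moved with single arrays: 13 without GC LD 3 or GC PO 2, 5 without GC LD 1, GC LD 4 or GC PO 1, 4 without GC PO 3 or GC PO 4, and 3 without GC LD 5 or GC PO 5. After normexp background correction the split was 6 rising and 3 falling.

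In the theca wall the rising family was H2A. From early dominant to preovulatory 12 histone probes rose and 0 fell, against 14.4% and 11.5% of all tested probes, and the members' median was 0.22 against 0.05 for all probes. On quantile-normalized arrays the split was 12 rising and 2 falling, and on median-centred arrays 7 and 1. Of 12 H2A probes without H2A.Z 9 rose (median 1.06), with 1 each of 5 H1, 10 H2B and 14 H3 probes, and no H4 or H2A.Z probe (medians 0.13 and 0.01). These 12 probes fell into 6 groups of shared sequence.

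The H3.2 probe with the stem-loop letters (A_69_P076071) rose most. It read -2.59, -3.25, -3.74, -4.76 and -3.17 in TW ED, a lowest of -2.99, a median of -1.67 and a highest of -0.96 over 8 measured TW LD arrays, and -1.16, -1.85, -1.32, -2.01 and -1.90 in TW PO. ED and PO did not overlap, and the change was 1.85 (SE 0.39, adjusted p = 0.0031). The letters are bases 10 to 25 of this 60-base probe, so it too runs on past where a processed message ends. H2BC21 and H2A type 1-J, which share its sequence run, rose by 1.51 (SE 0.29, adjusted p = 0.00172) and 1.61 (SE 0.36, adjusted p = 0.00407). H2A type 1-J was dim, well above background on 2 of 5 TW ED arrays, and its change ranged from 0.14 to 1.77 over the alternatives, with a call in 10 of 12, so its size is not settled. H2BC21 read -0.49, -0.99, -1.06, -1.32 and -1.05 in TW ED, -0.17, 0.87 and 1.34 as lowest, median and highest in TW LD, and 0.89, 0.85, 0.69, -0.01 and 0.22 in TW PO, with TW ED below every later array.

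H2A type 1-D, whose probe covers the end of the coding sequence, read -1.84, -2.72, -2.78, -2.90 and -2.32 in TW ED, -2.83, -1.06 and -0.14 as lowest, median and highest in TW LD, and -0.47, -1.27, -0.76, -0.80 and -0.51 in TW PO. The ED and PO groups did not overlap, and the rise was 1.75 (SE 0.40, adjusted p = 0.0046). H2AC6, a bright core H2A probe, read 1.55, 1.15, 1.36, 0.97 and 1.29 in TW ED, 1.72, 2.03 and 2.70 as lowest, median and highest in TW LD, and 2.40, 1.78, 2.51, 2.20 and 1.91 in TW PO. Every later TW array was above every TW ED array for H2AC6, a rise of 0.90 by PO (SE 0.20, adjusted p = 0.00357).

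H2AC19 rose by 1.22 (SE 0.31, adjusted p = 0.00772), the H2A type 1 probes by 1.09 (adjusted p = 0.0141) and 1.03 (adjusted p = 0.0205), H2AC5 by 1.08 (adjusted p = 0.00852), H2AC25 by 0.88 (adjusted p = 0.0116) and H2AC9 by 0.78 (adjusted p = 0.0107). H2AC4, whose printed probe is close to those of H2AC5 and H2AC9, differed by -0.01 (adjusted p = 0.984), and it read 0.74, 0.89, 0.94, 1.25 and 0.76 in TW ED. The other H2A probes not called were H2AC8 (1.33, adjusted p = 0.0715) and H2A type 1-H (0.62). The linker histone H1-2 rose by 1.27 (SE 0.39, adjusted p = 0.0231) between groups that overlapped: it read -1.21, -2.19, -1.89, -2.33 and -1.69 in TW ED and -0.24, 0.02, -0.35, -1.01 and -1.36 in TW PO. H1-2 was called without each of 14 of the 19 TW arrays and H2A type 1 probe A_69_P037286 without each of 17. H1-6, well above background on 13 arrays in all, was called nowhere (0.57, adjusted p = 0.378 in TW).

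Between the early and late dominant stages 1 histone probe rose in TW and 0 fell, against 0.0109% and 0.0218% of all probes. It was H2BC21 (1.65, SE 0.25, adjusted p = 0.0414), which was called without each of only 8 of the 19 arrays. At an unadjusted p under 0.05, 15 histone probes were higher and 2 lower by limma, and those nearest to a call were H3.2 probe A_69_P076071 (1.79, adjusted p = 0.0702), H2AC5 (1.12, adjusted p = 0.081), H2AC6 (0.77, adjusted p = 0.0829) and H2AC19 (1.15, adjusted p = 0.0894). The median over the H2A probes without H2A.Z lay between 0.74 and 1.14 within each of 5 slides. From late dominant to preovulatory no histone probe was called in TW (unadjusted p under 0.05: 4 higher, 1 lower), against 9.14% higher and 6.84% lower of all probes. Without TW LD 6 there were 2 calls, and 1 without TW LD 1, TW LD 9 or TW PO 2.

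The difference between the layers' changes was tested directly, as the GC change from ED to PO minus the TW change. Of the 56 histone probes 7 had a higher and 17 a lower difference, against 14.7% and 15.1% of all tested probes, and the members' median was -0.35 against -0.07. These came from 4 and 12 of the 31 groups of shared sequence. All 7 higher ones were H2B probes: H2BC5 (1.86, adjusted p = 0.000416, and 1.81, adjusted p = 0.000755), H2B type 1-L (1.59, adjusted p = 0.000613), H2BC9 (1.45, adjusted p = 0.00236), H2BC4 (1.40, adjusted p = 0.00906), H2BC18 (1.26, adjusted p = 0.0196) and H2BC25 (0.90, adjusted p = 0.0298). The lower ones were 9 of 12 H2A probes without H2A.Z (median -1.19), 3 of 5 H1 probes, both CENPA probes, 1 H3.1 probe, H4C14 and H2BC3. The largest fitted values were H1-1 (-4.48 and -4.28, adjusted p = 0.00103 and 0.00338), H1-5 (-3.47, adjusted p = 0.000662), CENPA (-3.41 and -3.19, adjusted p = 0.0016 and 0.00162), H4C14 (-2.56, adjusted p = 0.00176), H2A type 1-H (-2.56, adjusted p = 0.000949), H2BC3 (-2.42, adjusted p = 0.0165), H2A type 1-D (-1.85, adjusted p = 0.00811) and H2A type 1 (-1.31, adjusted p = 0.00776). The values of H1-1, H1-5 and H2A type 1-H rest on GC PO arrays where they were not well above background, so their sizes and order are not measured: over the alternatives they ranged from -4.77 to -1.18 for H1-1 probe A_69_P036981, from -3.88 to -0.65 for H1-5 and from -2.72 to -0.24 for H2A type 1-H, with a call in each. Of the probes that rose in GC 7 had a called difference, of those that fell there 8, and of those that rose in TW 8. H2BC21, higher in both layers by PO, and H2A.Z had no called difference. H2AC19 and H2BC25 were called without each of 29 of the 34 arrays. On median-centred arrays the split was 8 higher and 10 lower.

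The layers were also compared at each stage. At the early dominant stage 18 histone probes were higher in GC and 9 lower, against 14.4% and 21% of all probes. These came from 6 and 6 of the 31 groups of shared sequence. Both H1-1 probes (3.53, SE 0.68, adjusted p = 0.00012, and 3.59, SE 0.75, adjusted p = 0.000309), all 5 H2A.Z probes (1.10 to 1.32, adjusted p = 0.00672 to 0.0238) and 6 of 12 other H2A probes were higher in GC, the latter led by H2AC4 (1.05, adjusted p = 0.000406), H2AC6 (0.83) and H2AC9 (0.81). The H1-1 probes were well above background on only 3 and 4 of 5 TW ED arrays. Over the alternatives and left-out arrays their differences ranged from 1.16 to 4.03 and from 1.30 to 4.10, so their size is not settled. The probes lower in GC were 8 of 10 H2B probes (median -0.96) and H1-2 (-1.50, adjusted p = 0.0195). H2BC5 was lower by -1.45 (adjusted p = 2.2e-05) and -1.28, H2BC21 by -1.17, H2B type 1-L by -1.08, H2BC9 by -1.03, H2BC4 by -0.90, H2BC18 by -0.89 and H2BC25 by -0.70.

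At the late dominant stage 15 histone probes were higher in GC and 14 lower, against 12.2% and 19.7% of all probes. These came from 6 and 9 of the 31 groups of shared sequence. The higher ones were mainly H3: 11 of 14 H3 probes, among them all 5 for H3.3B (0.71 to 0.91, adjusted p = 0.00142 to 0.00439) and 5 for H3.1 (0.75 to 0.97). The lower ones included 8 of 10 H2B probes (median -1.01) and 4 of 12 H2A probes without H2A.Z. The largest differences were those of H1-2 (-2.17), H2A type 1-J (-1.76), H3.2 probe A_69_P076071 (-1.67), H2A type 1-D (-1.58), H2BC21 (-1.43), H2BC5 (-1.25 and -1.08), H2BC18 (-1.04), H2B type 1-L (-1.02) and H2BC4 (-1.01). The H1-2 readings were -2.65, -3.21, -0.24, -3.37 and -3.58 in GC LD against -1.75, -0.18 and 0.68 as lowest, median and highest in TW LD, so GC LD 3 alone entered the TW range.

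At the preovulatory stage 8 histone probes were higher in GC and 13 lower, against 21.4% and 28.1% of all probes. As shares of probes these were below the background. They came from 4 and 12 of the 31 groups of shared sequence, for which no background was counted. All 5 H2A.Z probes were higher (1.77 to 1.93, adjusted p = 0.000121 to 0.000327), with H4 probes A_69_P052136 (0.80) and A_69_P036996 (0.70) and H2AC4 (0.61). By probe A_69_P082771, H2A.Z read at most 3.57 on the 4 measured TW PO arrays, below the GC PO readings except that of GC PO 2 (2.92). Of 10 H2B probes 1 was lower, H2BC3, and none was higher (median 0.39). The probes lower in GC were led by H1-5, at least 3.59-fold lower (fitted difference -2.69), CENPA (-2.06 and -1.92), H2A type 1-D (-1.88), H2A type 1-H (at least 1.43-fold), H2A type 1-J (-1.77), H4C14 (-1.75), H2BC3 (-1.63) and H1-2 (-1.45). H2A type 1-J was well above background on 1 of 5 GC PO arrays, and its difference ranged from -1.94 to -0.09 over the alternatives, with a call in 6 of 10.

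The layer comparisons depend on the slides and on the scaling. Only slides 2 and 8 held both layers, and with slide as a fixed block 6, 7 and 5 histone probes were called at ED, LD and PO. On those slides, at LD, the H2B median was -1.95 and -0.76, H1-2 -2.49 and -1.62, and H3.3B probe A_69_P004045 1.03 and 1.11. Median centring moved the all-probe median of the GC minus TW difference from -0.06, -0.05 and -0.20 to 0.44, 0.41 and 0.58, and the splits of called histone probes to 38 higher and 2 lower, 26 and 8, and 32 and 6. At PO the split was 13 and 13 on quantile-normalized arrays and 14 and 11 after normexp and in the authors' deposited values. On the median-centred scale H2A type 1 probe A_69_P037224 (0.13) and H2AC5 (0.16) turned sign at PO.

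Genes that work with histones, from lists of related genes, moved as follows. Of all tested probes 21% rose and 19.2% fell in GC from ED to PO, and 14.4% and 11.5% in TW. Of 37 DNA replication genes tested, 33 fell and 1 rose in GC from ED to PO (median -2.24), led by CDC45 (-5.98), a helicase cofactor, UHRF1 (-5.45), POLE2 (-5.03), a polymerase subunit, and RRM2 (-4.85), which makes deoxynucleotides, with RPA1, a single-strand binding protein, higher by 1.18. In TW 13 of the 37 fell and 0 rose (median -0.46), led by MCM5 (-1.56), GINS3 (-1.18), TYMS (-1.02) and POLE2 (-0.92). Of 14 mitosis genes 13 fell in GC (median -6.08), with CENPF at least 121-fold and NDC80 at least 141-fold lower, both parts of the kinetochore, and 1 fell in TW, NUSAP1 (-0.99). So in GC 8 of 10 H2B probes rose over the interval in which 33 of 37 replication genes fell. The RNA was primed with oligo(dT), and how far these readings cover messages without a poly(A) tail was not tested. Of 9 further H2B probes outside the selection, 5 rose, all for H2BC10, and 4 fell. With each probe or gene centred on its own mean over the 34 arrays, the mean per array of the 10 H2B probes lay between -1.07 and -0.49 in GC ED and between 0.03 and 0.76 in GC PO, and that of the 37 replication genes between 0.86 and 1.64 and between -1.56 and -0.67. Neither set's GC ED and GC PO arrays overlapped. In TW 8 replication genes were called without TW ED 4.

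Of 23 histone chaperone genes 4 rose and 9 fell in GC (median -0.22), against 21% and 19.2% of all tested probes. Those that fell most were OIP5 (-5.92), which helps load CENPA, ASF1B (-5.89), an H3 and H4 chaperone, MMS22L (-5.52) and MIS18A (-5.02), also of the CENPA loading machinery. In TW 1 rose, UBN2 (0.65), and 3 fell, ASF1A (-0.81), NASP (-0.67) and RBBP7 (-0.58), against 14.4% and 11.5% of all tested probes. Of 13 genes of histone transcription and 3′ processing 3 rose and 3 fell in GC (median 0.25), near the GC shares of all probes. ZNF473 (1.32) and LSM10 (0.99), of the U7 processing machinery, and SNRPB (1.17) rose. POU2F1 (-1.64), NPAT (-1.23), the coactivator of histone genes, and CPSF3 (-0.93), the cleavage enzyme, fell. In TW 1 fell, LSM10 (-0.68). SLBP was not called in either layer (0.30 and -0.17). Of 10 histone genes looked up by symbol, 0 rose and 4 fell in GC, and 1 rose and 1 fell in TW. This list includes the members CENPA, H1-1, H1-2 and H1-5 given above and MACROH2A2 given below, so its counts are not separate readings.

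Markers of other cells also moved, and the same shares of all tested probes apply to their counts. In TW, 6 of 7 leukocyte markers rose from ED to PO (median 1.72, CD68 2.27, CD2 1.92, C1QB 1.72), 4 of 6 endothelial markers rose (median 1.08, among them CDH5, and TEK by 1.48), 1 rose and 2 fell of 8 theca and stroma markers, 1 of 5 smooth muscle and pericyte markers rose, and 0 of 8 granulosa markers was called. The mean of the leukocyte list ranged from -2.36 to -1.33 in TW ED, from -2.10 to -1.11 in TW LD and from -0.92 to 0.34 in TW PO, and that of the endothelial list from -2.77 to -1.58 in TW ED and from -1.87 to -1.01 in TW PO. In GC, 5 of 8 granulosa markers fell (median -2.05), 2 of 7 leukocyte markers rose (median 0.93, list mean -5.74 to -4.65 in ED and -5.03 to -3.32 in PO), 3 of 5 smooth muscle markers rose, and 1 theca and 1 endothelial marker fell. No red blood cell gene of 2 tested was called in either layer. The part of these markers in the histone results was not tested.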

How the data were processed

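Scanner files of 34 one-colour Agilent arrays were used. Per the labels' protocols, total RNA of checked integrity was primed with oligo(dT), transcribed to antisense RNA and labelled with Cy3. The deposited files hold spot intensity values (processed signal, background-subtracted per the file headers) and spot flags. Feature Extraction is version 9.1 per the submitters' processing notes and 9.5.3.1 per the file headers. The authors' deposited log2 value table was quantile-normalized mean signal without background subtraction (r = 0.999995 with such values computed from the files, median 7.29) and served as an alternative.

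From the intensities, log2 processed signal minus the array's 75th percentile over non-control spots was taken, outlier-flagged spots were left out, spots of a probe were averaged and saturated spots kept. In this way 15 member values are missing, and 1 member was saturated on 2 arrays. Probes well above background on 5 or more arrays were tested (36629) with limma 3.58.1 (lmFit and eBayes, R 4.3.3), stages within a layer and layers over all 34 arrays, checked on simulated data. Names came from the annotation and from RefSeq's table for assembly TB-T2T. By the slide identifiers, GC arrays lay on 5 slides and TW arrays mostly on others, although the design text places every group on every slide.

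The text names, in each comparison, up to 10 called members in each direction with the largest change, the replacement variants whatever their values, and up to 4 called genes of each list of related genes with the largest change (or fixed examples where none was called), with all member probes of a gene; a few members next to a threshold or shown for contrast were added after their values were seen. Members and lists were chosen with earlier results of these data known. Alternatives were other normalizations, background corrections, filters, slide blocks and single arrays left out.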

Additional observations from a re-analysis of the deposited data

Results flagged for a closer look

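On 13 histone probes given array by array, 78 sets of 4 to 9 readings were searched. An array far from the others of its group was found in 5, near the chance rate of about 1 in 20. H1-2 stood high on GC LD 3 (-0.24, nearest array -2.65) and on GC PO 2 (-0.64, nearest -2.13). H2A.Z probe A_69_P082771 stood low on GC PO 2 (2.92, nearest 5.46). H2BC5 probe A_69_P037046 stood high on TW ED 1 (3.63, nearest 3.37), and H3.3B probe A_69_P004045 low on TW PO 2 (4.19, nearest 4.64).

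The change from ED to PO differed between the layers for 24 histone probes by limma's interaction test with Benjamini-Hochberg adjustment. It was higher in GC than in TW for H2BC5 (1.86 and 1.81), H2B type 1-L (1.59), H2BC9 (1.45), H2BC4 (1.40), H2BC18 (1.26) and H2BC25 (0.90). It was lower in GC for the H1-1 probes (-4.48 and -4.28), H1-5 (-3.47), the CENPA probes (-3.41 and -3.19), H4C14 (-2.56), H2BC3 (-2.42) and H3.1 probe A_69_P036986 (-1.01). It was also lower there for 9 H2A probes: H2A type 1-H (-2.56), H2A type 1-D (-1.85), H2A type 1 (-1.31 and -1.17), H2AC5 (-1.22), H2AC6 (-1.17), H2AC19 (-1.10), H2AC25 (-1.09) and H2AC9 (-1.08).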

How the results depend on the processing

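Over 12 alternative settings and 34 left-out arrays, 141 called histone values gave 5565 alternative values, of which 5126 had the same direction and a call, 437 the same direction without one and 2 the opposite direction. Of the 141, 49 were called in every setting run. The 2 reversals were H2A type 1 probe A_69_P037224 (0.13) and H2AC5 (0.16), GC against TW at PO on median-centred arrays. The total of histone probes called moved by over 1.5 times in these cases. With slide as a fixed block it was 5 for GC LD to PO, 0 for TW ED to LD, and 6, 7 and 5 for GC against TW at ED, LD and PO, of which slide and layer are largely confounded. With slide as a random block it was 2 for TW ED to LD. With all 34 arrays in 1 fit it was 5 for GC ED to LD, 18 for GC LD to PO and 0 for TW ED to LD. For TW ED to LD it was also 2 after normexp and in the authors' deposited values, and 0 without the filter on dim probes and without slide 7. For GC against TW at PO it was 38 on median-centred arrays.

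Leaving out 1 array at a time gave 0 to 6 calls for GC ED to LD, 3 to 13 for GC LD to PO, 15 to 24 for GC ED to PO, 0 to 2 for TW ED to LD, 0 to 2 for TW LD to PO, 10 to 13 for TW ED to PO, 20 to 30, 25 to 32 and 16 to 25 for the layers at ED, LD and PO, and 23 to 30 for the difference in change. No paired analysis was possible because the labels give the groups no shared replicate numbers; arrays were instead blocked by slide, as given above. Dim probes (H1-1, H1-5, H2A type 1-H) have only bounds where they were not well above background, H2A type 1-J was measured on few arrays of GC and TW ED, and number of arrays limits small changes.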

Other observations

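The array held 21 further probes named for histone genes by symbol whose descriptions were outside the selection used above, and they were chosen after values of the main set were known. In GC from ED to PO 7 of them rose and 5 fell, against 21% and 19.2% of all tested probes. In TW 3 rose and 1 fell, against 14.4% and 11.5%, so the TW shares were not above the background. All 5 probes for H2BC10, a core H2B gene, rose in GC by 3.01 to 3.17 (limma, adjusted p = 0.00535 to 0.00632) between groups that did not overlap, and were 2.53 to 2.65 higher than in TW at PO. Other H2B probes fell there, with H2BC6 changing by -1.47 (adjusted p = 0.014) and H2BN probe A_69_P122921 by -1.63 (adjusted p = 0.00662). Both H2BC12 probes were also called lower, but they were well above background on 0 of 5 GC PO arrays and on only 2 and 3 of 5 GC ED arrays. The bound was at least 1.09-fold for one probe and gave no fold for the other, so their fall is not settled. H2BC6, H2BC12 and A_69_P122921 carry the stem-loop letters, as H2BC21 does, and H2BC21 rose. In TW the H2A genes H2AC10 (0.59), H2AC12 (0.84) and H2AC19 probe A_69_P110771 (1.65) rose, as did most H2A probes of the main set.

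MACROH2A2, an H2A variant with a large extra domain, fell in GC by 4.15 (SE 0.84, adjusted p = 0.00153) and in TW by 2.07 (SE 0.51, adjusted p = 0.00713), while MACROH2A1 differed by 0.41 (adjusted p = 0.182) in GC and -0.26 in TW and was not called. MACROH2A2 was well above background on 2 of 5 GC PO arrays, with readings from -8.88 to -3.71, so the size of its fall in GC is not settled. H4C7 rose by 0.96 and H4C3 by 0.69 in GC (both adjusted p = 0.0455). The oocyte linker histone H1-8 was at least 1.23-fold lower in GC than in TW at PO, where it was well above background on 0 of 5 GC and 4 of 5 TW arrays. H3-3A differed by -0.23 and -0.07 in GC and was not called.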
